A study of Homo sapiens with 24 samples.

Results

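The 10 genes of prostaglandin synthesis, breakdown, transport and reception examined here (PTGS1, PTGS2, PTGES, PTGES2, PTGES3, HPGD, PTGER2, PTGER4, PTGFR and SLCO2A1) were followed in RWPE1 cells, an immortalized, non-tumorigenic line of human prostate epithelium. Their members on the array were all probe sets annotated with 1 of these symbols and no other, which gave 20 of the 54613 probe sets on the Affymetrix U133 Plus 2.0 array once control probe sets were left out. Cultures were given 1,25(OH)2D, the active hormone made from vitamin D, at 100 nM, or 0.1% ethanol as vehicle. RNA was taken after 6, 24 or 48 h, with 4 arrays for each of the 6 combinations and 24 arrays in all. In the 48 h cultures the medium was replaced 24 h before harvest. Changes towards 48 h therefore cannot be told apart from effects of fresh medium. All groups came from this single line, and the labels call the 4 arrays of a group biological replicates. Whole cultures were measured, so a response in fewer cells and a smaller response in each cell cannot be told apart.

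Prostaglandins are short-lived lipid mediators made from arachidonic acid, a fatty acid released from membranes by phospholipases. The cyclooxygenases PTGS1, the usually constitutive form, and PTGS2, the inducible form, convert it to the intermediate prostaglandin H, and the prostaglandin E synthases PTGES, PTGES2 and PTGES3 turn that intermediate into prostaglandin E. SLCO2A1 carries prostaglandins into cells, where HPGD (15-hydroxyprostaglandin dehydrogenase) inactivates them. PTGER2 and PTGER4 are prostaglandin E receptors that raise cyclic AMP, and PTGFR is the receptor for prostaglandin F. In the prostate this pathway is best known for its ties to inflammation and to the growth of epithelial cells.

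A total of 3 genes responded to 1,25(OH)2D within 6 h, and their promoters are shown because the results below turn on them. The 250 bases before the annotated start of each are given 5′ to 3′ on the strand that reads like the transcript, from RefSeq, build GRCh38.p14. They lie at chr1:186680424-186680673 (minus strand) for PTGS2, at chr9:129753043-129753292 (minus strand) for PTGES and at chr5:40679665-40679914 (plus strand) for PTGER4. Capitals mark matches, on either strand, to the 8 motifs named after the sequences.
PTGS2: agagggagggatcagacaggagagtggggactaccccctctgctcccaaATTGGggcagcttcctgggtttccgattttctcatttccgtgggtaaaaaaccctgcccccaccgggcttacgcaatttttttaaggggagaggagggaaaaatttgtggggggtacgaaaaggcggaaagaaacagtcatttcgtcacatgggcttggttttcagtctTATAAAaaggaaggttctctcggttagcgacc
PTGES: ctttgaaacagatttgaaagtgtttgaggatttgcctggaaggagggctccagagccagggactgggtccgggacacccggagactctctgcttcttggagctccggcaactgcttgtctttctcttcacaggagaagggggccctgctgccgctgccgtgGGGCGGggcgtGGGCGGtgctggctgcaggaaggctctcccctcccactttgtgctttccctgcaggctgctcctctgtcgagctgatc
PTGER4: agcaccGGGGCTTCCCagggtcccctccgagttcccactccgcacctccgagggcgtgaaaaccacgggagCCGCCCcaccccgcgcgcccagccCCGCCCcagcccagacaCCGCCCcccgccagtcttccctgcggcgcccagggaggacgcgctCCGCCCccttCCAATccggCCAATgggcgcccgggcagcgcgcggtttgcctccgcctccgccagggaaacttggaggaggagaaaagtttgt

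The PTGS2 stretch held a TATA box (TATAAA) that ended 27 bases before the start and 1 CCAAT box (CCAAT) on the opposite strand. The PTGES stretch held neither, but had 2 GC boxes (GGGCGG). In PTGER4, whose 250 bases were 72.8% G or C, there were 4 GC boxes, 2 CCAAT boxes and 1 match to the NF-kB consensus, and no TATA box. Among 35116 RefSeq promoters cut to the same window, 10.7% held the TATA box, 32% the CCAAT box, 42.6% the GC box and 5.21% the NF-kB consensus. The AP-1 site TGANTCA and the cyclic AMP response element TGACGTCA were searched as well, and so were 2 repeats of half-sites of the vitamin D receptor, AGGTCA or AGTTCA followed by any 3 bases and the same 6 bases again. None of these 4 was found in the 3 stretches, and each is rare in such a window, being held by 6.57%, 1.65%, 0.0057% and 0% of all promoters in that order. Only matches to the whole string or consensus were counted. Variant forms of a site were not searched, so a missing match does not mean that the site is absent. A sequence was on hand for 9 of the 10 genes.

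The deposited values are log2 levels after gcRMA, and a level of 1 probe set is not set against that of another. A probe set was tested if it reached 3.2 (log2) on at least 3 of the 4 arrays of at least 1 group, which 26036 did. Of the 20 member probe sets 13 passed, for 9 genes: all 4 of PTGS1, both of PTGES, 1 of 2 for PTGS2 and for PTGER4, 1 of 4 for HPGD, and the only probe set of PTGES2, of PTGES3, of PTGER2 and of SLCO2A1. Neither of the 2 PTGFR probe sets passed. Differences below are 1,25(OH)2D minus vehicle on the log2 scale from limma, ± the standard error, with p-values adjusted by the Benjamini-Hochberg method over all 26036 probe sets and a call at an adjusted p under 0.05.

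Of the 24 arrays 4 stood apart from the others of their groups on the first principal component of the within-group residuals. That component was taken over 12026 genes, by each gene's brightest tested probe set, and held 75.2% of the residual variance. The limit was 0.3 in either direction. At 24 h the arrays that stood apart were 1,25(OH)2D replicates 1 and 4 and vehicle replicate 1, and at 6 h vehicle replicate 1. The 2 treated ones lay on opposite sides of the component (0.42 and -0.55). Where the 4 arrays are left out below, the 24 h comparison rests on 1,25(OH)2D replicates 2 and 3 and vehicle replicates 2, 3 and 4. CYP24A1, the vitamin D catabolic enzyme used as a check of the treatment, was 10.08, 6.10 and 5.99 higher with 1,25(OH)2D at 6, 24 and 48 h. The basal cell keratins KRT5 (15.24 to 15.44) and KRT14 (16.04 to 16.21) were high on all 24 arrays, and so were KRT8 (12.26 to 13.60) and KRT18 (14.00 to 14.76) of luminal cells. No marker of leukocytes or endothelium went above 4.45 (PTPRC, CD3E, PECAM1, CDH5 and VWF), and the luminal KLK3 reached at most 5.2. Among stromal markers COL3A1, DES, PDGFRB and LUM reached at most 3.52, whereas COL1A1 lay between 9.45 and 10.72 and was, as 1 of the 5 stromal markers, 0.60 ± 0.11 lower with 1,25(OH)2D at 48 h (adjusted p = 0.0136). Its part in the results at 48 h was not tested. The markers TP63 and CD68 were not analysed here.

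After 6 h, 1,25(OH)2D raised PTGS2 and PTGES, an inducible cyclooxygenase and the inducible prostaglandin E synthase that follows it, and lowered the receptor PTGER4. Of the 13 tested probe sets 4 were called, 3 higher and 1 lower, against 2.69% of all tested probe sets (1.91% higher and 0.784% lower). After 24 h 2 were called, both of PTGES and both higher, against 0.353% of all (0.238% higher). After 48 h 4 were called, both of PTGES higher and those of PTGER4 and SLCO2A1 lower, against 9.61% of all (4.01% higher and 5.61% lower). The median difference over the 13 was 0.02, -0.05 and 0.00 at 6, 24 and 48 h, beside -0.03, 0.02 and -0.01 over all tested probe sets. The values of 1,25(OH)2D and vehicle arrays did not overlap for 4, 3 and 5 of the 13 at 6, 24 and 48 h, as they did not for 7.31%, 5.18% and 16% of all.

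**Figure D1:**
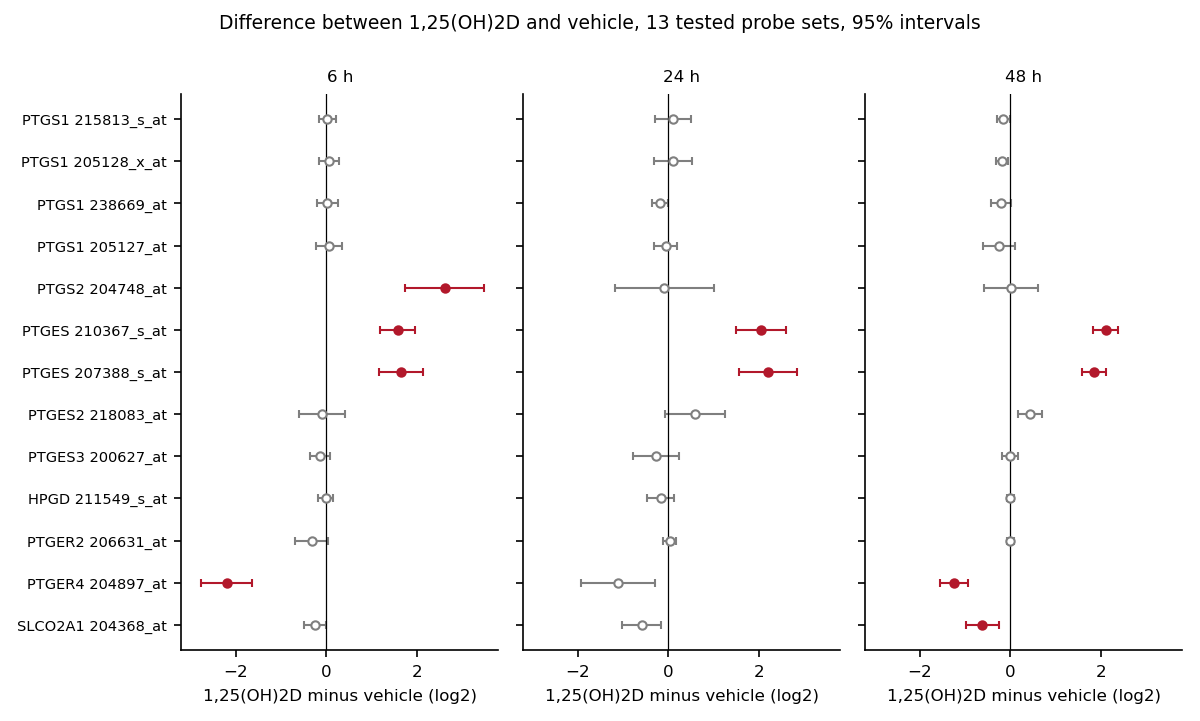
Difference between 1,25(OH)2D and vehicle (log2) of the 13 tested probe sets at 6, 24 and 48 h, with 95% intervals from limma and filled red points for calls at an adjusted p under 0.05. PTGES stands to the right of 0 at all 3 times, PTGS2 at 6 h (2.62), and PTGER4 to the left at all 3 times, with its 24 h difference not called. The HPGD probe set passed the filter only through the vehicle arrays of 24 h.

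PTGS2 rose at 6 h and was not called at 24 or 48 h. At 6 h its tested probe set (204748_at) read 6.90, 6.43, 7.90 and 7.46 with 1,25(OH)2D, against 3.73, 4.56, 5.04 and 4.86 with vehicle. The lowest treated array stood more than 1 log2 unit above the highest vehicle array. The difference was 2.62 ± 0.38, or 6.16-fold higher (adjusted p = 0.00821), the 52nd largest rise among the 26036 probe sets. The exact permutation test of the 8 arrays gave p = 0.0286 (two-sided), the smallest that 4 against 4 allows.

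At 24 h PTGS2 read 5.21, 3.94, 3.68 and 3.55 with 1,25(OH)2D, against 3.13, 4.70, 4.35 and 4.54 with vehicle. Both extremes, the high treated value and the low vehicle value, came from arrays that stood apart, and the groups overlapped (difference -0.08, 95% interval -1.18 to 1.01, adjusted p = 0.921). Without the 4 arrays that stood apart PTGS2 was called lower at 24 h (-0.72, adjusted p = 0.0299), as it was with array weights (-0.70, adjusted p = 0.0396). The former fit kept only 1,25(OH)2D replicates 2 and 3 against vehicle replicates 2, 3 and 4. At 48 h the levels were 4.91, 4.38, 4.02 and 4.75 with 1,25(OH)2D and 3.86, 4.84, 4.62 and 4.66 with vehicle, again overlapping (difference 0.02, 95% interval -0.58 to 0.62, adjusted p = 0.988). On the 8 treated arrays of 24 and 48 h PTGS2 lay between 3.55 and 5.21, beside 3.13 to 5.04 on the 12 vehicle arrays.

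The change of the PTGS2 response with time was tested in a fit of all 24 arrays. The 24 h effect minus the 6 h effect was -2.71 ± 0.58 (adjusted p = 0.0111), and the 48 h effect minus the 6 h effect was -2.60 ± 0.58 (adjusted p = 0.0128). PTGS2 was the single member called in each of these contrasts, as a lower effect, in which 2.11% and 2.79% of all probe sets were called (1.33% and 1.77% lower). Between 24 and 48 h 0 members were called (0.0346% of all, 9 probe sets), and 0 of the 13 had an unadjusted p under 0.05. Within 1,25(OH)2D cells PTGS2 fell by 3.08 between 6 and 24 h (SE 0.41, adjusted p = 2.17e-05), while in vehicle cells the change was -0.37 (SE 0.41, adjusted p = 0.745).

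The other PTGS2 probe set (1554997_a_at) was below the filter. It read 2.44, 2.60, 5.17 and 2.79 with 1,25(OH)2D at 6 h, against 2.53, 2.44, 2.44 and 2.43 with vehicle. Treated replicate 3, which also had the highest value on the tested probe set, was the single array of the 24 above 3. On the 16 arrays of 24 and 48 h it lay between 2.42 and 2.45.

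PTGES, the microsomal prostaglandin E synthase that is induced together with PTGS2 in many cells, was higher with 1,25(OH)2D at every time. At 6 h the brighter probe set (210367_s_at) read 8.66, 8.83, 8.30 and 8.54 with 1,25(OH)2D, against 7.43, 6.90, 6.82 and 6.87 with vehicle. The groups were apart by more than 0.8 log2 units although vehicle replicate 1, an array that stood apart, was the highest of its group. The difference was 1.58 ± 0.17, or 2.99-fold (adjusted p = 0.00176).

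At 24 h the same probe set read 8.32, 8.75, 8.32 and 9.02 with 1,25(OH)2D and 7.11, 6.33, 6.34 and 6.43 with vehicle. Here too the vehicle group had 1 high array, its replicate 1, and all treated arrays were above it. The difference was 2.05 ± 0.24, or 4.15-fold (adjusted p = 0.0196). At 48 h 1,25(OH)2D arrays read 9.35, 8.84, 9.29 and 9.32, against 7.25, 7.08, 7.0 and 7.03 on vehicle arrays, a difference of 2.11 ± 0.12, or 4.32-fold (adjusted p = 4.96e-05). The vehicle arrays were closer together here than at the earlier times.

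The second PTGES probe set (207388_s_at) had the same course. At 6 h it read 7.12, 7.22, 6.76 and 7.0 with 1,25(OH)2D and 5.83, 5.47, 5.36 and 4.83 with vehicle (difference 1.65 ± 0.21, adjusted p = 0.00405). At 24 h it read 6.47, 7.20, 6.93 and 7.83 with 1,25(OH)2D and 5.13, 4.73, 4.73 and 5.05 with vehicle (difference 2.20 ± 0.28, adjusted p = 0.0281). At 48 h it read 7.93, 7.41, 7.70 and 7.61 with 1,25(OH)2D and 5.82, 5.90, 5.87 and 5.60 with vehicle (difference 1.86 ± 0.12, adjusted p = 7.65e-05). No treated array reached down to a vehicle array of its time on either probe set, and the 2 probe sets correlated at Pearson's r = 0.978 over the 24 arrays, which is given as a description.

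Both PTGES probe sets were among the 39 that were called higher at all 3 times (0.15% of all tested), and in the exact permutation test each gave p = 0.0286 at each time. A change of the PTGES effect with time was not called: the 48 h effect minus the 6 h effect was 0.53 ± 0.27 (adjusted p = 0.569) and 0.21 ± 0.31 (adjusted p = 1) on the 2 probe sets. The call at 24 h rested on few arrays. It was lost on both probe sets when vehicle replicate 2, 3 or 4 or 1,25(OH)2D replicate 2 or 3 of that time was left out, and for 207388_s_at also without vehicle replicate 1, with adjusted p up to 0.106 and 0.142. With any 1 array of that time left out, call lost or kept, the differences stayed between 1.91 and 2.24 and between 1.96 and 2.41. Without the 4 arrays that stood apart the differences were 2.17 and 2.23 (adjusted p = 0.00931 for both). The call of 207388_s_at at 24 h was also lost with no filter (adjusted p = 0.0703) and after a second quantile normalization (adjusted p = 0.0651).

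**Figure D2:**
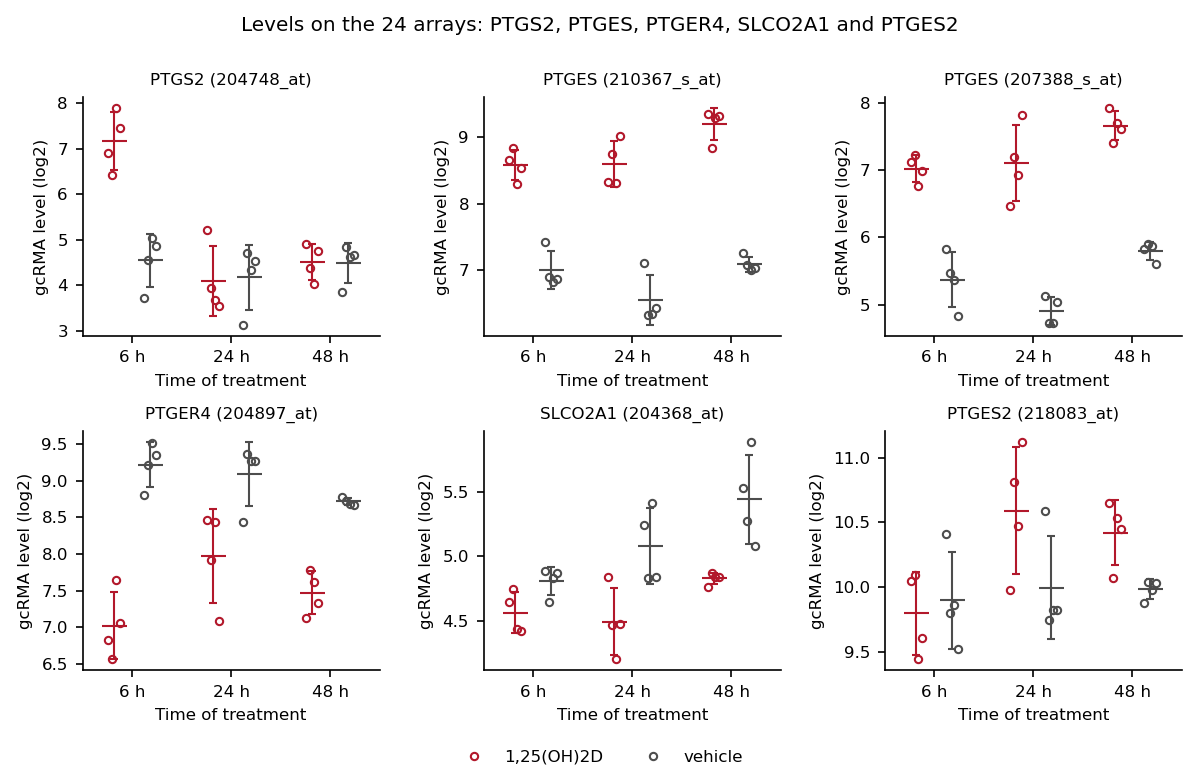
Level (log2, gcRMA) on each of the 24 arrays for PTGS2, both PTGES probe sets, PTGER4, SLCO2A1 and PTGES2 by time of treatment, with 1,25(OH)2D in red and vehicle in grey, each circle an array, the horizontal mark the group mean and the bar ± SD (n = 4). PTGS2 is apart at 6 h only, both PTGES probe sets are apart at all 3 times, and PTGER4 is apart at 6 and 48 h, with 1 vehicle array (8.44) among the treated ones at 24 h.

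The other 2 prostaglandin E synthases were not called. PTGES2, a membrane-associated synthase (218083_at), averaged 9.80 ± 0.32 with 1,25(OH)2D and 9.90 ± 0.37 with vehicle at 6 h (SD, n = 4 each). At 24 h it read 9.98, 10.81, 10.47 and 11.12 with 1,25(OH)2D and 10.59, 9.75, 9.82 and 9.82 with vehicle, where replicate 1 lay well above the other vehicle arrays. At 48 h it read 10.65, 10.07, 10.53 and 10.45 with 1,25(OH)2D and 9.88, 10.04, 9.98 and 10.03 with vehicle, and the groups did not overlap. The differences were -0.10 ± 0.22, 0.60 ± 0.29 and 0.44 ± 0.12 (adjusted p = 1, 0.601 and 0.0593).

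Without the 4 arrays that stood apart the PTGES2 difference at 24 h was 0.84 and was called (adjusted p = 0.0178), and so was that with array weights (0.64, adjusted p = 0.005). At 48 h PTGES2 was called higher with SAM (q-value of 0.0322), with the stricter filter (adjusted p = 0.0326), with array weights (0.50, adjusted p = 0.00258) and without 1,25(OH)2D replicate 2 (0.56, adjusted p = 0.00277). PTGES3, a cytosolic synthase better known as the HSP90 co-chaperone p23 (200627_at), lay between 12.84 and 13.94 on the 24 arrays. Its differences were -0.13 ± 0.10, -0.27 ± 0.21 and 0.00 ± 0.08 at 6, 24 and 48 h (adjusted p = 1, 0.601 and 0.992). At 48 h the 95% interval was -0.18 to 0.18.

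PTGS1 showed no called response to 1,25(OH)2D on any of its 4 probe sets, and the 24 h level was lower than the 6 h level on part of them. The brightest probe set (215813_s_at) averaged 12.71 ± 0.10 with 1,25(OH)2D and 12.69 ± 0.04 with vehicle at 6 h. At 24 h the averages were 12.52 ± 0.29 with 1,25(OH)2D and 12.41 ± 0.20 with vehicle, and at 48 h 12.66 ± 0.09 with 1,25(OH)2D and 12.81 ± 0.07 with vehicle (SD, n = 4 each). Over the 4 probe sets the differences ran from 0.02 to 0.06 at 6 h, from -0.17 to 0.11 at 24 h and from -0.25 to -0.15 at 48 h, with adjusted p of 0.11 or more. At 48 h all 4 were thus below 0, and 2 of them had an unadjusted p under 0.05 (0.0162 and 0.0382). Some alternatives called single probe sets lower. With SAM these were 238669_at at 24 h (-0.17, q-value of 0.0306) and 205128_x_at at 48 h (-0.18, q-value of 0.0441). With array weights 205127_at (-0.37, adjusted p = 0.0383) and 238669_at (-0.26, adjusted p = 0.0347) were called at 48 h, and both were also called there without 1,25(OH)2D replicate 2 (-0.41 and -0.29, adjusted p = 0.0163 and 0.023). Without vehicle replicate 4 of 48 h 205128_x_at was called (-0.23, adjusted p = 0.044).

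The 4 PTGS1 probe sets fell into 2 pairs. Over the 24 arrays 215813_s_at and 205128_x_at correlated at r = 0.97, 238669_at and 205127_at at r = 0.939, and probe sets of different pairs at 0.577 to 0.70. On the second pair PTGS1 was lower at 24 h than at 6 h in both treatments. For 238669_at the change was -0.66 ± 0.09 with 1,25(OH)2D (adjusted p = 3.15e-05) and -0.46 ± 0.09 with vehicle (adjusted p = 0.00232).

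For 205127_at the change between 6 and 24 h was -0.62 ± 0.14 with 1,25(OH)2D (adjusted p = 0.00374) and -0.52 ± 0.14 with vehicle (adjusted p = 0.021). The first pair changed by -0.19 and -0.24 with 1,25(OH)2D and by -0.27 and -0.29 with vehicle, and these were not called. The vehicle call of 205127_at was lost without vehicle replicate 2 or 4 of 6 h or 3 or 4 of 24 h (-0.49 to -0.46, adjusted p up to 0.0747). At 48 h the call was left for 238669_at with 1,25(OH)2D alone (-0.29 ± 0.09 against 6 h, adjusted p = 0.0315), against -0.06 ± 0.09 with vehicle (adjusted p = 0.763). The difference between those changes, -0.23 ± 0.13, was not called (adjusted p = 0.673).

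**Figure D3:**
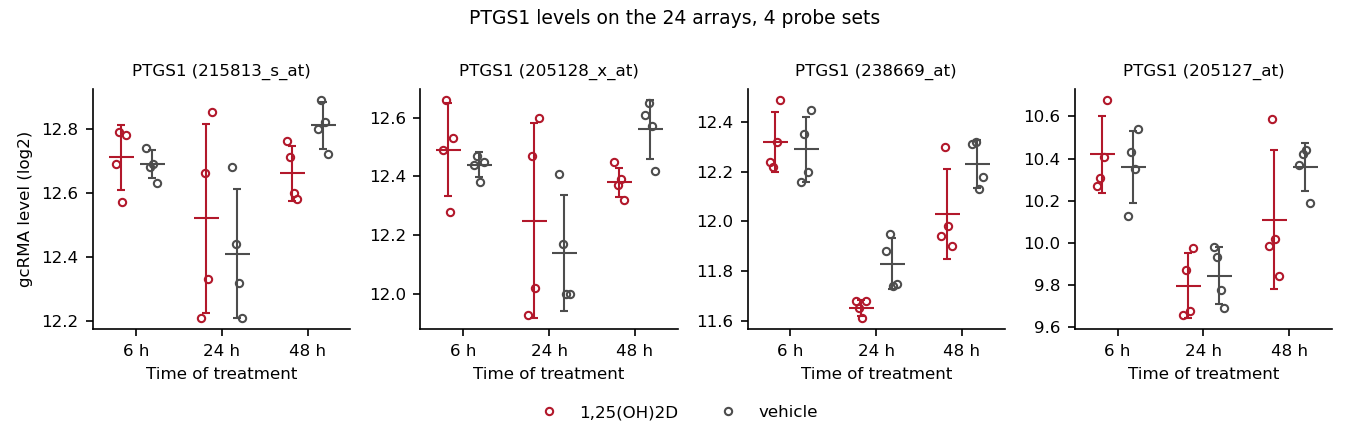
Level (log2, gcRMA) of the 4 PTGS1 probe sets on the 24 arrays by time of treatment, with 1,25(OH)2D in red and vehicle in grey, each circle an array, the horizontal mark the group mean and the bar ± SD (n = 4). On 238669_at all arrays of 24 h lie below all arrays of 6 h in both treatments, while 1,25(OH)2D and vehicle overlap at 6 and 48 h on all 4 probe sets.

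PTGER4, one of the prostaglandin E receptors that act through cyclic AMP, was lower with 1,25(OH)2D. At 6 h its tested probe set (204897_at) read 6.83, 6.56, 7.64 and 7.06 with 1,25(OH)2D, against 8.80, 9.21, 9.52 and 9.35 with vehicle. All treated arrays were more than 1 log2 unit below all vehicle arrays. The difference was -2.20 ± 0.25, or 4.59-fold lower (adjusted p = 0.00221), the 5th largest fall among the 26036 probe sets.

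At 24 h PTGER4 read 8.46, 7.92, 8.44 and 7.09 with 1,25(OH)2D, against 8.44, 9.37, 9.27 and 9.27 with vehicle. The low vehicle array was replicate 1, one of those that stood apart, and it lay at the level of the 2 highest treated arrays. The difference of -1.11 ± 0.35 was not called (adjusted p = 0.418). It was called at almost the same size without the 4 arrays that stood apart (-1.13, adjusted p = 0.0191), in a fit of all 24 arrays (-1.11, adjusted p = 0.036), with SAM (q-value of 0.0393) and, at -0.88, with array weights (adjusted p = 0.00288).

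At 48 h PTGER4 read 7.13, 7.79, 7.62 and 7.33 with 1,25(OH)2D, against 8.78, 8.73, 8.69 and 8.67 with vehicle. The vehicle arrays lay within 0.2 log2 units of each other and all treated arrays were below them (difference -1.25 ± 0.13, or 2.38-fold lower, adjusted p = 0.00112). The smaller fall at the later times was not called as a change of the effect: the 24 h effect minus the 6 h effect was 1.09 ± 0.39 (adjusted p = 0.219), and for 48 h minus 6 h it was 0.95 ± 0.39 (adjusted p = 0.343). Within 1,25(OH)2D cells PTGER4 was 0.95 ± 0.28 higher at 24 h than at 6 h (adjusted p = 0.0234), a call that was lost without treated replicate 2 or 4 of 6 h or 3 of 24 h (0.80 to 0.96, adjusted p up to 0.0629). The other PTGER4 probe set (204896_s_at) stayed between 1.85 and 1.97 on all 24 arrays and was not tested.

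PTGER2, the other cyclic AMP-raising receptor for prostaglandin E among the members (206631_at), was barely above the filter. It read 3.29, 3.35, 3.27 and 3.29 with 1,25(OH)2D at 6 h, against 3.39, 3.93, 3.87 and 3.28 with vehicle, where 2 arrays were high. On the 16 arrays of 24 and 48 h it lay between 3.22 and 3.36. The difference at 6 h was -0.32 ± 0.16 (adjusted p = 0.662), and those at 24 and 48 h were 0.03 and 0.01.

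In vehicle cells PTGER2 was 0.34 ± 0.10 lower at 24 h than at 6 h (adjusted p = 0.0415) and 0.35 ± 0.10 lower at 48 h (adjusted p = 0.0206), most of which came from those 2 arrays. The 24 h call was lost without replicate 2 or 3 of 6 h or any 1 array of 24 h (-0.35 to -0.24, adjusted p up to 0.172). It was also lost under 3 of the 7 alternatives other than single arrays left out (adjusted p up to 0.107), 1 of them with no filter (adjusted p = 0.0612). The 48 h call was lost without vehicle replicate 2 or 3 of 6 h, or vehicle replicate 4 of 48 h (-0.34 to -0.25, adjusted p up to 0.0973), and under 1 of those 7 alternatives (adjusted p = 0.057). The brighter of the 2 probe sets of PTGFR, the prostaglandin F receptor (207177_at), lay between 2.86 and 3.19 and the other (1555097_a_at) between 2.57 and 2.74. No level of PTGFR could be measured above the filter in these cells.

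SLCO2A1, the prostaglandin transporter (204368_at), was lower with 1,25(OH)2D at 48 h, by a small margin. The levels at that time were 4.77, 4.87, 4.84 and 4.84 with 1,25(OH)2D, against 5.53, 5.27, 5.89 and 5.08 with vehicle. The treated arrays were close together and all below the vehicle arrays, which ran from 5.08 to 5.89 (difference -0.61 ± 0.16, or 1.53-fold lower, adjusted p = 0.048). The call was lost without any 1 of the 4 treated arrays or without vehicle replicate 1 or 2 (differences of -0.67 to -0.59, adjusted p up to 0.112), and also with no filter on low values (adjusted p = 0.136), after a second quantile normalization (adjusted p = 0.0672) and after centring on array medians (adjusted p = 0.0554).

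At 24 h SLCO2A1 read 4.84, 4.47, 4.20 and 4.47 with 1,25(OH)2D and 5.24, 4.83, 5.42 and 4.84 with vehicle (difference -0.59 ± 0.19, adjusted p = 0.414), which SAM (q-value of 0.0366) and array weights (-0.73, adjusted p = 0.0143) did call. At 6 h it read 4.65, 4.75, 4.44 and 4.42 with 1,25(OH)2D and 4.89, 4.65, 4.83 and 4.87 with vehicle (difference -0.25 ± 0.11, adjusted p = 0.524). Both comparisons had 1 array that kept the groups from being apart. SLCO2A1 moved with time in vehicle cells, where it was 0.63 ± 0.16 higher at 48 h than at 6 h (adjusted p = 0.00927), against 0.27 ± 0.16 in 1,25(OH)2D cells (adjusted p = 0.298). The difference between these changes, -0.37 ± 0.22, was not called (adjusted p = 0.765).

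HPGD, which inactivates prostaglandins by oxidizing them, was at the low end of the scale on all of its 4 probe sets. The tested one (211549_s_at) lay between 3.16 and 3.32 on 23 arrays, and vehicle replicate 1 at 24 h read 3.74. Only the vehicle arrays of 24 h brought this probe set past the filter, so no size or p is given for that time. At 6 and 48 h the differences were -0.02 ± 0.07 and 0.01 ± 0.03 (adjusted p = 1 and 0.965). The other 3 probe sets lay between 2.21 and 3.34 on all arrays.

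Within each treatment some members differed between times. In vehicle cells 3 of the 13 were called between 6 and 24 h, all lower (7.81% of all, 3.82% lower), and 2 between 6 and 48 h, SLCO2A1 higher and PTGER2 lower (15.4% of the members, against 14.7% of all, 7.28% higher and 7.38% lower). In 1,25(OH)2D cells 5 were called between 6 and 24 h (16.7% of all, 8.85% higher and 7.84% lower): PTGER4 and PTGES2 higher, and PTGS2 and 2 PTGS1 probe sets lower. The PTGES2 rise was 0.80 ± 0.23 (adjusted p = 0.0249) and was not called without treated replicate 3 or 4 of 6 h or 2 or 4 of 24 h (0.62 to 0.73, adjusted p up to 0.111). Between 6 and 48 h 3 were called in 1,25(OH)2D cells (23.1% of the members, against 17.3% of all, 8.64% higher and 8.68% lower), which were PTGS2 (-2.66 ± 0.41, adjusted p = 7.62e-05), PTGS1 and PTGES. The PTGES rise was 0.62 ± 0.19 on 210367_s_at (adjusted p = 0.0283) and 0.64 ± 0.22 on 207388_s_at, which was not called (adjusted p = 0.0538). The calls of PTGES and PTGS1 were lost without treated replicate 3 or 4 of 6 h, or treated replicate 1, 3 or 4 of 48 h (changes of 0.52 to 0.60 and -0.29 to -0.23, adjusted p up to 0.111 and 0.129). That of PTGES was also lost with no filter (adjusted p = 0.0604) and after a second quantile normalization (adjusted p = 0.0701). The PTGS1 call was also lost under 2 of the 8 alternatives other than single arrays left out (adjusted p up to 0.0614). Contrasts of the same treatment share its 6 h arrays. Those with 48 h also span the replacement of medium, whose part was not tested.

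Beyond the members, 36 other genes of eicosanoid metabolism and signalling were listed, of which 15 had a tested probe set. By each gene's brightest tested probe set, 1 was called at 6 h, 1 at 24 h and 3 at 48 h, where 3.4%, 0.516% and 12% of 12026 genes were called. The calls of ALOX5AP at 6 h and AKR1C3 at 24 and 48 h came from probe sets that only treated arrays brought past the filter. The counts are therefore not measured against those shares. None of the 3 tested phospholipases that release arachidonic acid was called: PLA2G4A, the main cytosolic one, differed by -0.03 ± 0.32, 0.38 ± 0.61 and 0.38 ± 0.12 at 6, 24 and 48 h (adjusted p = 1, 0.723 and 0.0981), and PLA2G6 and PLA2G12A stayed within 0.25 of 0.

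Of the 6 tested prostanoid synthases and prostaglandin reductases, AKR1C3, a reductase that forms prostaglandin F and also acts on steroids, was called higher at 24 and 48 h. It read 5.45, 5.67, 6.33 and 6.37 with 1,25(OH)2D at 24 h, against 3.08, 3.06, 3.09 and 3.04 with vehicle. At 48 h it read 6.17, 6.60, 6.06 and 6.18 with 1,25(OH)2D, against 3.08, 3.07, 3.07 and 3.05 with vehicle. The vehicle arrays were all below the filter, so the probe set was tested only because of the treated arrays, and no size or p is given. The AKR1C genes are close copies of each other whose transcripts the probe set may share.

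Another enzyme of prostaglandin F synthesis, PRXL2B, was 0.31 ± 0.07 higher at 48 h (adjusted p = 0.0301), with 9.36, 9.22, 9.13 and 9.12 in 1,25(OH)2D cells and 8.85, 8.86, 9.02 and 8.85 in vehicle cells. PTGDS, the prostaglandin D synthase, differed by 0.43 ± 0.12 at that time (adjusted p = 0.0566), and CBR1, PTGR1 and PTGR2 were not called. Among the 4 tested receptors and efflux pump, ABCC4, which exports prostaglandins, was 0.49 ± 0.11 lower at 48 h (adjusted p = 0.0276), and read 7.73, 7.42, 7.81 and 7.56 with 1,25(OH)2D and 8.13, 8.31, 7.94 and 8.08 with vehicle. PTGER1, PTGER3 and TBXA2R were not called at any time. The calls of PRXL2B and ABCC4 were lost without vehicle replicate 1, 2 or 4, and also without treated replicate 3 for PRXL2B and treated replicate 4 for ABCC4 (adjusted p up to 0.0872 and 0.0777). Both were also lost in the fit of all 24 arrays (adjusted p = 0.45 and 0.493) and with no filter (adjusted p = 0.0624 and 0.0761), and ABCC4 after a second quantile normalization (adjusted p = 0.0589).

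In the leukotriene branch, ALOX5AP, the protein that presents arachidonic acid to the 5-lipoxygenase, was called at 6 h only. At 6 h it read 4.63, 4.41, 4.80 and 4.85 with 1,25(OH)2D, against 2.49, 2.44, 2.42 and 2.43 with vehicle. At 24 and 48 h all 16 arrays lay between 2.40 and 2.62. As with AKR1C3, only the treated arrays brought the probe set past the filter, and the same limit holds. ALOX5, the lipoxygenase itself, was below the filter, and LTA4H was not called.

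**Figure D4:**
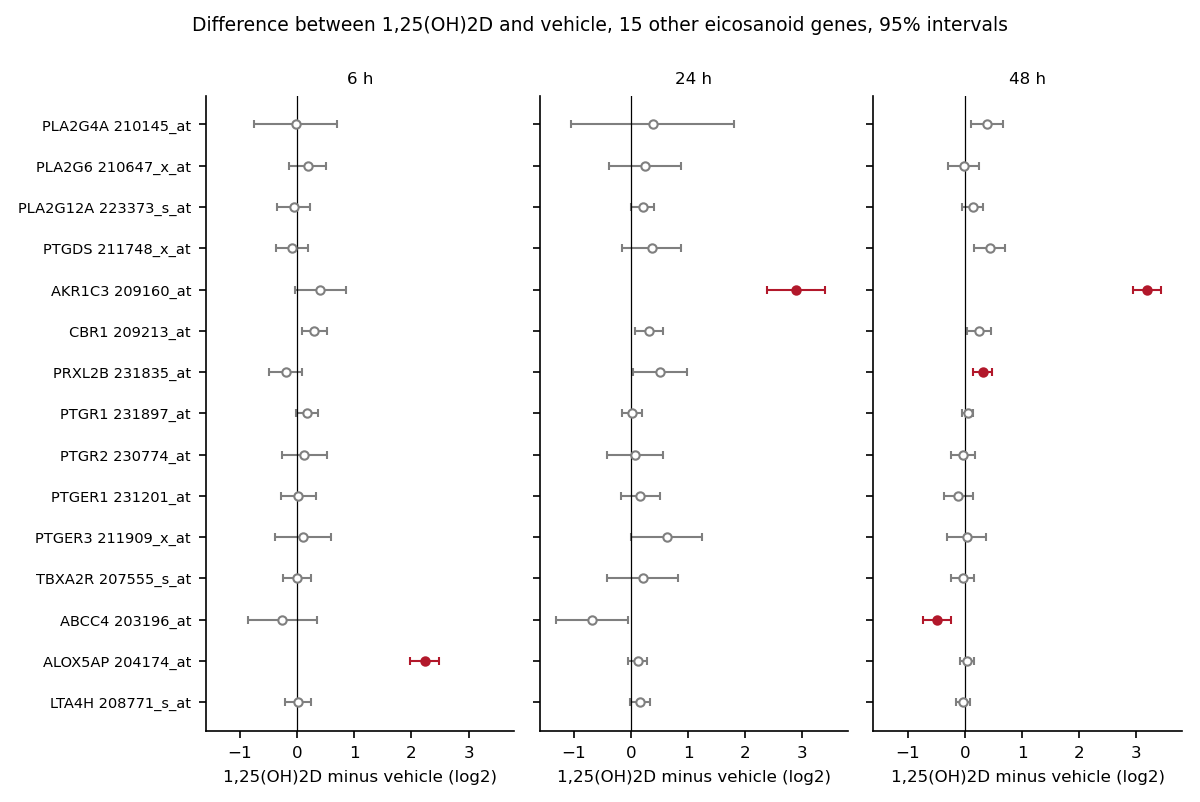
Difference between 1,25(OH)2D and vehicle (log2) of 15 other eicosanoid genes at 6, 24 and 48 h, with 95% intervals from limma and filled red points for calls at an adjusted p under 0.05. ALOX5AP is called at 6 h, AKR1C3 at 24 and 48 h, and PRXL2B and ABCC4 at 48 h with differences under 0.5 in size. For ALOX5AP and AKR1C3 the vehicle arrays lay below the filter.

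The genes whose levels ran most like those of the called members over the 24 arrays were listed by Pearson's r among 12026 genes, as a description, since all share the same arrays and groups. For PTGS2 they were NET1 (r = 0.957), GPCPD1 (0.939) and NRIP1 (0.93). For PTGES they were KRT16 (0.967), CDA (0.967) and ETNK2 (0.958), and for PTGER4 EDN1 (0.934), APCDD1 (0.929) and EFNB2 (0.926). SLCO2A1 had lower values, with KDR (0.818), PSMB8-AS1 (0.802) and OLFML2A (0.80) nearest to it.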

How the data were processed

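RNA of the 24 samples was hybridised to Affymetrix U133 Plus 2.0 arrays. Background correction, quantile normalization and summary of the probe sets were done by the authors with GCRMA, which gave the deposited log2 levels. The GCRMA version is not given in the sources used here. Arrays have no read depth, and 4 per group limit the precision.

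The deposited table held 54675 probe sets, from which 62 controls were left out, and the study's present calls were replaced by a filter at 3.2 (log2) on 3 arrays of a group. Treated and vehicle arrays of each time (8) were compared with limma 3.58.1 (lmFit, eBayes) in R 4.3.3, and changes with time in a fit of all 24 with 6 group means. Gene symbols came from the platform annotation, with 1 symbol for 21917 of the tested probe sets, more than 1 for 1088 and none for 3031. A gene's brightest tested probe set stands for it where genes are counted.

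Named were all member probe sets, the 15 tested genes of the eicosanoid list and the untested ALOX5, the 3 genes most like each called member, and markers. The members and lists were chosen with earlier results of these data known. The labels do not say whether same-numbered samples were paired, and the main fits treated them as unpaired. Within-group residuals of same-numbered arrays correlated at -0.389 to 0.781 at 6 h, -0.907 to 0.391 at 24 h and -0.136 to 0.021 at 48 h. The scripts were tested on simulated data. Tables and figures used Python 3.11.15 with pandas 2.3.3 and matplotlib 3.10.9.

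As alternatives, the 24 arrays entered a single fit, SAM was re-implemented with its 70 relabellings, the filter was dropped or raised to 6.7, the values were quantile-normalized again or centred on array medians, limma ran with trend and robust options or with array weights, replicate numbers served as a block, and arrays were left out singly or, for those that stood apart, together. For the changes between 6 and 24 h these were added after seeing the data.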

Additional observations from a re-analysis of the deposited data

Results flagged for a closer look

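In groups of 4 arrays, the highest or lowest value was compared with the others by Dixon's criterion over 78 groups of the tested member probe sets, and 6 values were picked out, where chance alone gives about 1 in 20 groups. Vehicle replicate 1 at 24 h accounted for 4 of them. It read 7.11 for PTGES (210367_s_at), where the other 3 arrays lay at 6.33 to 6.43, 10.59 for PTGES2 (others 9.75 to 9.82), 13.31 for PTGES3 (others 13.75 to 13.82) and 8.44 for PTGER4 (others 9.27 to 9.37). This array is one of the 4 that stood apart on the first principal component. Vehicle replicate 1 at 6 h, another of them, read 7.43 for PTGES (210367_s_at), with the others at 6.82 to 6.90. The last was 1,25(OH)2D replicate 2 at 48 h, which read 8.84 for the same probe set, with the others at 9.29 to 9.35. The part of these arrays in the results was not tested beyond leaving them out.

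The PTGS2 effect (204748_at) differed between times in the fit of all 24 arrays: the 48 h effect minus the 6 h effect was -2.60, and the 24 h effect minus the 6 h effect -2.71, both past the threshold. In the data that no comparison used, the untested PTGS2 probe set (1554997_a_at) read 5.17 on 1,25(OH)2D replicate 3 at 6 h, whereas its highest vehicle array read 2.53.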

How the results depend on the processing

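At 6 h the member count of 4 was found under all 18 alternatives, including each array left out. Under the stricter filter PTGS2 (204748_at) and PTGES (207388_s_at) passed only through treated arrays, so their calls under that setting add no support at any time. At 24 h (2 calls) the member count was 5 with SAM, 1 without the filter and 1 after a second quantile normalization. It was 6 with array weights, 0 with the replicate block, 5 without the 4 arrays that stood apart, and 0 to 2 with single arrays left out. In the fit of all 24 arrays PTGER4 was called beside both PTGES probe sets. At 48 h (4 calls) it was 7 with array weights, 3 with the replicate block and 3 to 6 with single arrays left out. For the 48 h effect minus the 6 h effect (1 call) the member count was 3 with array weights and 2 without the 4 arrays, and the replicate block kept the count at 1. The replicate block ended the calls of both PTGES probe sets at 24 h (adjusted p = 0.415 and 0.355) and that of AKR1C3 at 24 h. It also ended those of SLCO2A1 (adjusted p = 0.0879), PRXL2B (0.11) and ABCC4 (0.114) at 48 h. Between 48 and 6 h in 1,25(OH)2D cells (3 calls) it was 1 after a second quantile normalization, 8 with array weights, 6 without the 4 arrays and 1 to 6 with single arrays left out. Between 48 and 6 h in vehicle cells (2 calls) it was 0 with the stricter filter, under which SLCO2A1 and PTGER2 were not tested, 1 after a second quantile normalization, 6 with array weights, 5 without the 4 arrays and 1 to 3 with single arrays left out. Between 24 and 6 h, with alternatives chosen after seeing the data, the count in 1,25(OH)2D cells (5 calls) was 3 without the filter, 8 with array weights and 3 to 6 with single arrays left out. In vehicle cells (3 calls) it was 6 with array weights, 6 without the 4 arrays and 1 to 3 with single arrays left out. The cause of the other shifts was not tested. No called value changed sign, and of 519 values of named probe sets 438 stayed on their side of the threshold and 81 lost the call. Over all probe sets the counts of calls were 700, 92 and 2503 in time order. The fit of all 24 arrays called 1083, 554 and 975, SAM 1695, 1452 and 3737, array weights 1765, 8700 and 4205, the replicate block 824, 1 and 1349, and no filter 1644 at 48 h. Without the 4 arrays 5491 were called at 24 h, and with single arrays left out 431 to 818, 26 to 109 and 1607 to 3539. For changes with time, array weights called 2840 (against 726) for the 48 h effect minus the 6 h effect, and without the 4 arrays 1418 were called. In 1,25(OH)2D cells array weights called 8102 (against 4345) between 24 and 6 h and 7381 (against 4508) between 48 and 6 h, where leaving out the 4 arrays gave 6580 and 8043, and single arrays 2173 to 10109 and 3200 to 4775. In vehicle cells array weights called 7238 (against 2034) and 11985 (against 3817), and without the 4 arrays 8597 were called between 48 and 6 h. Signals near the filter, as for HPGD, PTGER2 and PTGFR, limit what could be detected for those genes.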
